A study of Mus musculus with 6 samples.

Results

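The genes of polyamine synthesis and catabolism examined here are Odc1, Amd1, Amd2, Srm, Sms, Smox, Sat1, Azin1, Oaz1 and Oaz2. They were chosen by their role, with earlier results of these data known, and matched by gene symbol in the count tables. All 10 were found among the 24421 genes listed, 7 had enough counts to be tested, and the other 3 (Amd1, Amd2 and Oaz1) had at most 1 count in any library. Gastrocnemius-plantaris (GP) muscle, a hindlimb muscle group, was profiled by bulk RNA-Seq with 1 library from each of 6 mice. By their labels, the 3 Ctrl libraries came from Net39 fl/fl mice without Cre and the 3 cKO libraries from HSA-CreERT2; Net39 fl/fl mice, at 5 months of age and 3 months after tamoxifen. The labels give B6C3F1 as the strain background, and the study's methods describe males and a founder cross to C57BL/6N. By the labels both groups carried the floxed alleles, in which loxP sites flank the first exon of Net39, both were given tamoxifen, and they differed by the transgene. HSA-CreERT2 is active in skeletal muscle fibres and not in satellite cells or heart, so the other cells of the muscle keep the gene. The comparison addresses what loss of Net39, a nuclear envelope protein of muscle, does to gene expression in adult muscle.

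Polyamines (putrescine, spermidine and spermine) are small, positively charged molecules that bind nucleic acids and support translation and growth. Ornithine decarboxylase (Odc1) makes putrescine, S-adenosylmethionine decarboxylase (Amd1) supplies the aminopropyl groups, and the synthases Srm and Sms use them to build spermidine and then spermine. Spermine oxidase (Smox) turns spermine back into spermidine, Sat1 acetylates polyamines for export or oxidation, and antizymes (Oaz1, Oaz2) send ornithine decarboxylase to the proteasome unless the antizyme inhibitor Azin1 holds them. In skeletal muscle, Smox is known as a gene whose expression falls in several forms of atrophy.

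Net39, listed under its older symbol Ppapdc3, went against the labels. The 3 libraries labelled Ctrl held only 310, 321 and 217 of its counts, and the cKO-labelled ones 5365, 4340 and 6080. This is a difference of 4.22 in log2 (SE 0.17, edgeR adjusted p = 0.000161) with the higher level in the cKO-labelled libraries, which the labels give as the knockout. The labels were kept, and each log2 fold change below is labelled cKO over labelled Ctrl, so its sign has to be read with the Net39 counts in mind. If the labels of the groups were exchanged in the deposit, which cannot be told from the labels themselves, every sign would turn. Libraries held 33860001 to 38201728 counts in the group labelled Ctrl and 39191239 to 48839910 in that labelled cKO. Levels are in CPM, the counts per 1e6 counts scaled with TMM factors, which were 1.08 to 1.11 in the former and 0.865 to 0.983 in the latter.

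Among the 7 genes tested, Smox and Sms were higher and Sat1 was lower in the cKO-labelled libraries at an edgeR adjusted p under 0.05, while Odc1, Azin1, Srm and Oaz2 did not pass. The 2 genes higher in the cKO-labelled libraries stand beside 12.6% of all 14180 genes tested, and the 1 gene higher in the Ctrl-labelled ones beside 11.8%. Smox was the only one of the 7 that also differed by more than 2-fold, beside 2.13% of all genes in that direction. For the same 3 genes no library of a group lay within the range of the other, as for 43.9% of all genes tested. The median log2 fold change of the 7 was −0.05, against −0.02 over all genes tested. In whole muscle, fewer cells of a type and less RNA per cell cannot be told apart.

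**Figure D1:**
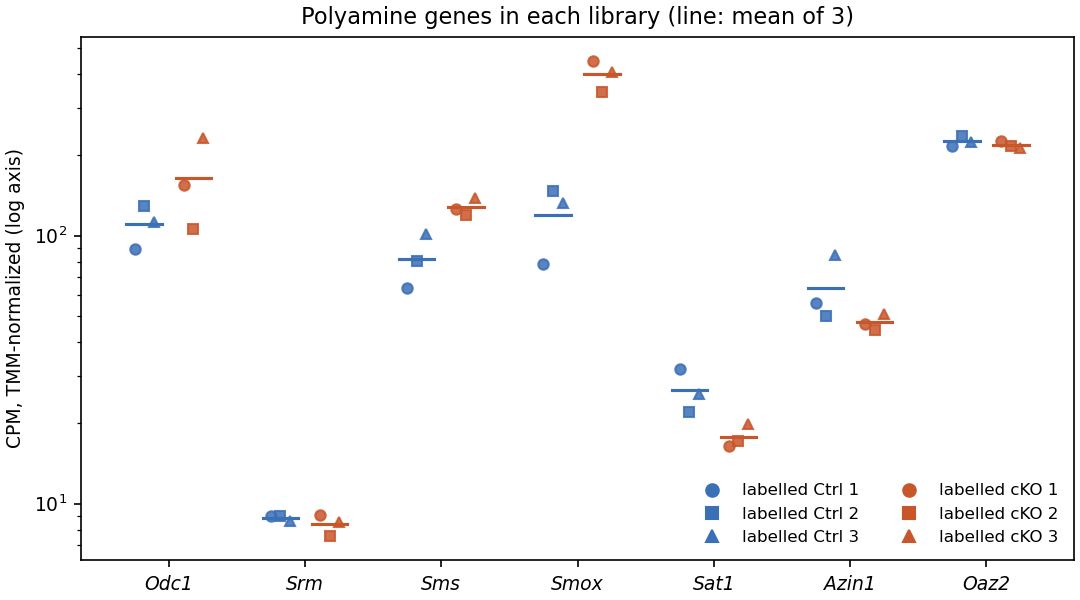
CPM of the 7 tested genes in each library on a log axis, with circles, squares and triangles for mice 1, 2 and 3 of each labelled group and a line at the mean of 3. Smox sits at 78.0 to 147 CPM in the Ctrl-labelled libraries and 342 to 449 CPM in the cKO-labelled ones, Sms and Sat1 separate by less, and the other 4 genes overlap.

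Smox, the oxidase that returns spermine to spermidine, lies on the plus strand of chromosome 2 (mm10, chr2:131491496-131525922) and had 8 exons in its transcript with the longest coding sequence. Its level was 78.0, 147 and 132 CPM in libraries Ctrl 1, 2 and 3 and 449, 342 and 406 CPM in cKO 1, 2 and 3. Every library labelled cKO was above every library labelled Ctrl, and Ctrl 1 was the lowest of the 6. The means were 119 ± 36.2 CPM (SD, n = 3) and 399 ± 53.6 CPM (SD, n = 3), a 3.35-fold ratio. The fitted log2 fold change was 1.75 (SE 0.24, 95% interval 1.19 to 2.30, edgeR adjusted p = 0.00447). An exact 2-sided permutation test of the CPM gave p = 0.1, the smallest that 3 against 3 libraries can give. The call was made in each of the 6 fits that left out 1 library, with log2 fold changes of 1.52 to 1.93 and edgeR adjusted p-values of 0.00615 to 0.0203. Scaling by total counts in place of TMM factors gave 1.49.

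Within the groups, Smox varied more among the Ctrl-labelled libraries, where the highest was 1.88 times the lowest, than among the cKO-labelled ones, where this ratio was 1.31. By the root mean square distance of centred log2 CPM over the 6 libraries, the 3 genes with the pattern most like that of Smox were Sorbs2os at 0.127, 2310065F04Rik at 0.158 and Smyd2, a lysine methyltransferase, at 0.167. Smyd2 had 54.3 to 91.5 CPM in the Ctrl-labelled libraries and 225 to 270.1 CPM in the cKO-labelled ones. Likeness over 6 libraries that differ mainly by group is a description of the level alone.

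Spermine synthase (Sms, chrX:157443855-157492287, minus strand) makes the substrate of Smox. Its level was 63.9, 80.4 and 102 CPM in the Ctrl-labelled libraries and 126, 119 and 138 CPM in the cKO-labelled ones. The groups did not overlap, with Ctrl 3 the closest to the cKO-labelled libraries. The means were 82.0 ± 18.8 CPM and 127 ± 9.61 CPM (SD, n = 3 each). The log2 fold change was 0.64 (SE 0.16, 95% interval 0.25 to 1.02, edgeR adjusted p = 0.0307), and the exact permutation p was 0.1. With 1 library fewer the call was lost without Ctrl 1 (0.49, edgeR adjusted p = 0.0663), Ctrl 2 (0.63, 0.0904), cKO 1 (0.64, 0.0784) or cKO 3 (0.56, 0.0958), fits in which the calls over all genes fell from 3454 to between 1560 and 1820. With total counts the value was 0.38 with an edgeR adjusted p of 0.0901, while that of all genes shifted from −0.02 to −0.27 at the median, so that Sms stood 0.65 above the median with either scaling.

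Sat1, the acetyltransferase that marks spermidine and spermine for export or oxidation, lies on the minus strand of the X chromosome at chrX:155213132-155216449. Its level was 31.9, 22.0 and 25.6 CPM in the Ctrl-labelled libraries and 16.4, 17.1 and 19.8 CPM in the cKO-labelled ones. All 3 libraries labelled cKO were below all 3 labelled Ctrl, with a gap of 19.8 to 22.0 CPM between the groups. The means were 26.5 ± 5.00 CPM and 17.8 ± 1.82 CPM (SD, n = 3 each), and the log2 fold change was −0.58 (SE 0.15, 95% interval −0.93 to −0.23, edgeR adjusted p = 0.0312, exact permutation p = 0.1). Sat1 and Smox are the polyamine catabolic enzymes with the most counts in this muscle per length of exon, and their differences had opposite signs. The call on Sat1 held in only 1 of the 6 fits with a library left out, that without Ctrl 2 (−0.69, edgeR adjusted p = 0.0320). The other 5 gave −0.42 (adjusted p = 0.0838) without Ctrl 1, −0.60 (0.0537) without Ctrl 3, −0.53 (0.101) without cKO 1, −0.57 (0.0644) without cKO 2 and −0.68 (0.0543) without cKO 3.

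The 250 bases before the RefSeq start of the 3 called genes (GRCm38.p6, the assembly also named mm10) are shown because the counts of these genes separated the groups, without any part that GENCODE annotates as exon. Of the 10 genes, 8 had an entry, and Srm and Azin1 did not. Capitals mark matches on either strand to a TATA box (TATAAA), to a GC box spelled GGGCGG, to an E-box spelled CACGTG or to a MEF2-type motif, which is CTA and TAG with any 4 bases between. Smox is read from chr2:131491654-131491763 on the plus strand, the longest stretch of its window outside the exons, which cover 140 of the 250 bases. Sms is read from the first of its 2 entries at chrX:157492288-157492537 and Sat1 from chrX:155216450-155216699, both on the minus strand and in full.
Smox: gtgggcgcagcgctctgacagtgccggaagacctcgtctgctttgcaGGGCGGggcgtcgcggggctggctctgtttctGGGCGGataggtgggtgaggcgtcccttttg
Sms: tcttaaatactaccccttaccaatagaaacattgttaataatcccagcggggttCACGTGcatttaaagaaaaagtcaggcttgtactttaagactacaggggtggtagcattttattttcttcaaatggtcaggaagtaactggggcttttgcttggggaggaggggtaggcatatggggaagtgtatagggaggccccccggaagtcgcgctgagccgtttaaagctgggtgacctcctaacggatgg
Sat1: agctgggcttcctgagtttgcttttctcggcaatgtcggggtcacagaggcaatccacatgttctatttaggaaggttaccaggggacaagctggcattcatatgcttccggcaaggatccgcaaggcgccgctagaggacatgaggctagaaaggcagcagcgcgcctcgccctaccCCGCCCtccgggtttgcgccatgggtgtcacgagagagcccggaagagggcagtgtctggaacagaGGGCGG
The whole Smox window held 6 GC boxes, 2 of them in the stretch shown, and the Sat1 window held 2, a motif found in 32.7% of all 32851 promoter windows of this length. The Sms window shown held 1 CACGTG and 0 GC boxes, while that of its other entry (chrX:157491369-157491618) held 0 CACGTG and 4 GC boxes. CACGTG was found in 6.02% of all windows, and the wider E-box CANNTG, which takes in CACGTG and is not in capitals, occurred 1 time in the Smox window, 3 in the Sms window shown and 2 in that of Sat1, and in 66.2% of all windows. None of the 3 windows shown held the TATA box or the MEF2-type motif, found in 12.4% and 3.20% of all windows, and a motif that is not in a window says only that these letters are not there.

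**Figure D2:**
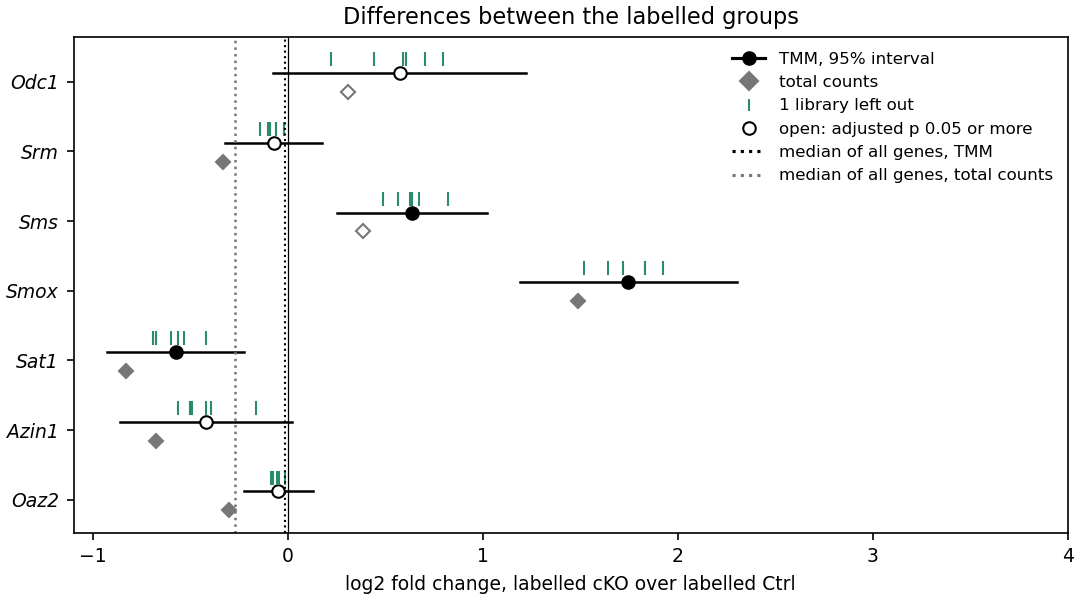
Log2 fold change, labelled cKO over labelled Ctrl, of each tested gene. Black circles with 95% intervals are the TMM fit, grey diamonds total counts, ticks the 6 fits with a library left out, open symbols an edgeR adjusted p of 0.05 or more, and dotted lines the medians of all genes (−0.02 and −0.27). Smox lies at 1.75, apart from the other 6.

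Odc1, which makes putrescine and is held to be the rate-limiting enzyme of synthesis (chr12:17544794-17551505, plus strand), had 89.2, 128 and 113 CPM in the Ctrl-labelled libraries and 154, 106 and 232 CPM in the cKO-labelled ones. The groups overlapped, because cKO 2 was below Ctrl 2 and Ctrl 3. The highest library labelled cKO was 2.19 times the lowest, the widest spread within a group among the 7 genes. The means of 110 ± 19.8 and 164 ± 63.5 CPM (SD, n = 3 each) gave a log2 fold change of 0.57 (SE 0.28, 95% interval −0.08 to 1.22, edgeR adjusted p = 0.171, exact permutation p = 0.3). Among the 6 fits with a library left out, Odc1 was called only without cKO 2 (0.79, edgeR adjusted p = 0.0400), and without cKO 3 the value was 0.22 (adjusted p = 0.505).

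Spermidine synthase (Srm, chr4:148591503-148594993, plus strand) was the lowest of the 7, at 8.96, 8.98 and 8.59 CPM in the Ctrl-labelled libraries and 9.09, 7.56 and 8.57 CPM in the cKO-labelled ones. Its groups overlapped and its log2 fold change of −0.07 (SE 0.11) had a 95% interval of −0.32 to 0.17 (edgeR adjusted p = 0.642), which leaves out a change as large as that of Sms or Smox. Srm makes spermidine, the substrate of Sms. The ratio of Sms to Srm counts, which no scaling of the libraries changes, was 7.13, 8.96 and 11.8 in the Ctrl-labelled libraries and 13.8, 15.7 and 16.1 in the cKO-labelled ones. The ratio of Smox to Sms was 1.22, 1.82 and 1.30 in the Ctrl-labelled libraries and 3.58, 2.88 and 2.94 in the cKO-labelled ones. Neither ratio overlapped between the groups, and the log2 differences were 0.74 for Sms to Srm and 1.13 for Smox to Sms. These ratios, and those of Odc1 and Azin1 to Oaz2, were chosen after the data were seen, and the exact permutation p was 0.1 for both, or 0.2 adjusted over the 4 ratios. Leaving out a library in turn gave 0.56 to 0.92 for Sms to Srm and 1.02 to 1.31 for Smox to Sms.

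The regulators of ornithine decarboxylase did not pass the test. Oaz2, an antizyme (chr9:65668001-65690300, plus strand), had 217, 234 and 224 CPM in the Ctrl-labelled libraries and 225, 215 and 212 CPM in the cKO-labelled ones, with a log2 fold change of −0.05 (SE 0.08, 95% interval −0.23 to 0.13, edgeR adjusted p = 0.663). It varied least of the 7 across all 6 libraries. Azin1, the antizyme inhibitor (chr15:38487427-38519266, minus strand), had 56.1, 50.3 and 84.4 CPM in the Ctrl-labelled libraries and 46.8, 44.6 and 51.0 CPM in the cKO-labelled ones. The groups overlapped at Ctrl 2 and cKO 3, and the log2 fold change was −0.42 (SE 0.19, 95% interval −0.86 to 0.02, edgeR adjusted p = 0.143, exact permutation p = 0.2). Without Ctrl 3 the value was −0.16 (edgeR adjusted p = 0.246). An exon of Azin1 overlaps 358 bases of Gm49077 on the opposite strand, and whether counting used the strand is not given in the sources used here. The ratio of Odc1 to Oaz2 differed by 0.56 in log2 (exact permutation p = 0.3, adjusted 0.3) and that of Azin1 to Oaz2 by −0.34 (p = 0.2, adjusted 0.267), and both overlapped between the groups. With a library left out in turn, the differences were 0.26 to 0.84 and −0.52 to −0.11.

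The library scaling decided several of these calls. With total counts 4 genes (Sat1, Azin1, Srm and Oaz2) were higher in the Ctrl-labelled libraries and 1 (Smox) in the cKO-labelled ones, beside 28.7% and 4.75% of all genes tested. Azin1 was then at −0.68 (edgeR adjusted p = 0.0288), Srm at −0.33 (0.0425) and Oaz2 at −0.30 (0.0265), while the median of all genes was −0.27. Relative to the median of all genes, Srm stood at −0.06 with either scaling, and Oaz2 at −0.03 with TMM factors and −0.04 with total counts.

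**Figure D3:**
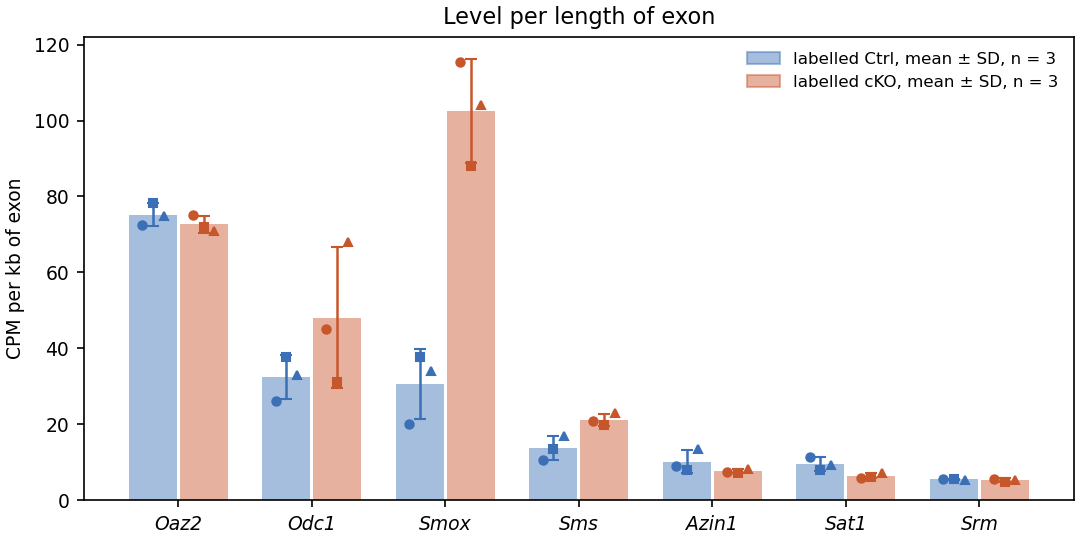
CPM per kb of annotated exon for the 7 tested genes, with bars and error bars for mean ± SD of 3 libraries and points for libraries. Oaz2 is highest in the Ctrl-labelled libraries (75.2) and Smox in the cKO-labelled ones (102), and Srm is lowest in both.

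Per length of exon, which allows the genes to be set against each other, Oaz2 was highest in the Ctrl-labelled libraries at 75.2 ± 2.98 CPM per kb (SD, n = 3). Odc1 followed at 32.3 ± 5.81 and Smox at 30.6 ± 9.30 CPM per kb, whose ranges overlapped, then Sms at 13.6 ± 3.14. Azin1 at 10.2 ± 2.92 and Sat1 at 9.55 ± 1.80 CPM per kb also overlapped, as did Sms with both, and Srm was below all of them at 5.53 ± 0.138. In the cKO-labelled libraries Smox was highest at 102 ± 13.8 CPM per kb, above Oaz2 at 72.6 ± 2.28 in every library. Odc1 at 48.1 ± 18.6 did not reach the lowest value of Oaz2 and stayed above Sms, which was at 19.8 to 22.9 CPM per kb. Azin1 was at 7.58 ± 0.520 and Sat1 at 6.40 ± 0.655 CPM per kb, with ranges that overlapped only at 7.13 to 7.14, and Srm was at 5.26 ± 0.487. Smox thus ranked beside Odc1 in the Ctrl-labelled libraries and first in the cKO-labelled ones. With the longest transcript in place of all exons, the Ctrl-labelled means put Smox (51.8) above Odc1 (49.9) and Sat1 (19.6) above Azin1 (13.1). The ranges of both pairs still overlapped there. In the cKO-labelled libraries Sat1 (12.1 to 14.7) was then above Azin1 (9.15 to 10.5) with no overlap. The order of the Sat1 and Azin1 means thus depends on the length used.

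**Figure D4:**
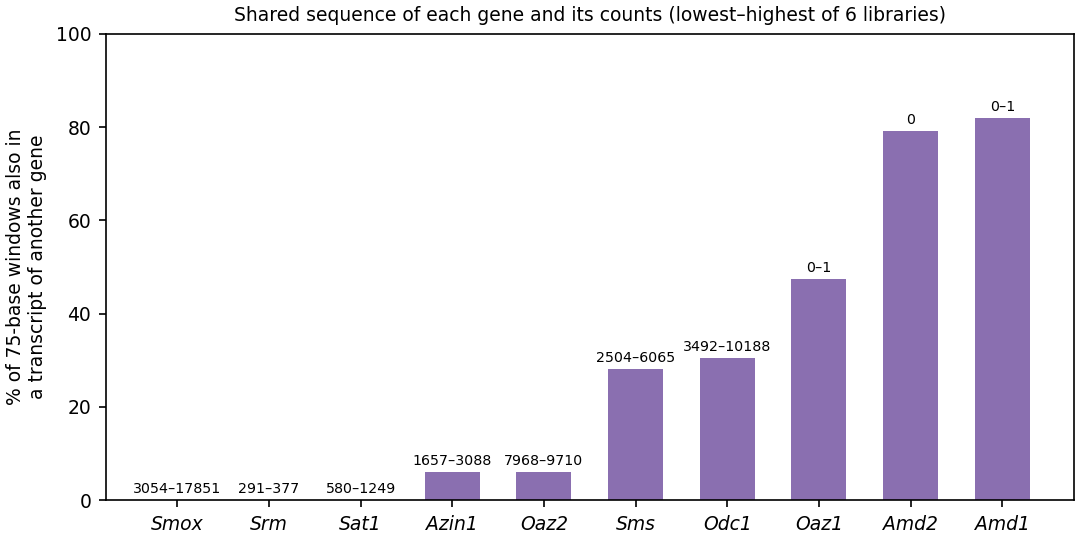
Share of 75-base windows of each gene's transcript with the longest coding sequence that occur unchanged in a transcript of another gene, in percent, with the lowest and highest counts of the 6 libraries above each bar. Amd1, Amd2 and Oaz1 have the largest shares (81.9, 79.2 and 47.5%) and at most 1 count, while Odc1 and Sms at 30.5 and 28.2% have 3492 to 10188 and 2504 to 6065 counts.

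Amd1 and Amd2, which encode S-adenosylmethionine decarboxylase, and Oaz1, the most widely expressed antizyme, could not be measured in these tables. Amd1 (chr10:40287458-40302186, minus strand) had 1 count in cKO 2 and 0 in the other libraries, Amd2 (chr10:35708675-35711892, minus strand) had 0 in all 6, and Oaz1 (chr10:80826656-80829290, plus strand) had 1 count in Ctrl 3 and 0 in the others. Cells in general need S-adenosylmethionine decarboxylase and antizyme activity, and no level or fold is drawn from the entries near 0. Amd2 has 1 exon and a coding sequence of 1002 bases that differs from that of Amd1 at 1 base. Of all 75-base windows of annotated transcripts, 72.5% of Amd1 and 79.2% of Amd2 also occur in a transcript of another gene. For Oaz1 it was 17.0%, with the pseudogene Oaz1-ps sharing 85.4% of its own windows, and Oaz1-ps had 0 counts in all 6 libraries. The part of shared sequence in these entries was not tested, and 83.0% of the windows of Oaz1 are its own. Odc1 and Sms share 16.6 and 16.9% of their windows with other genes and had 3492 to 10188 and 2504 to 6065 counts, Azin1 and Oaz2 share 4.37 and 3.37%, Sat1 shares 0.942%, and Smox and Srm share 0.

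Windows of these copies run as follows, with a capital at the only differing base of the Amd1 and Amd2 coding sequences. The Oaz1 window was picked as the first within a coding exon that Oaz1-ps also holds. It is therefore identical by choice and has no capital. Amd1 is read from chr10:40290149-40290223 and Amd2 from chr10:35710727-35710801, both on the minus strand, and both lie in coding sequence. Oaz1 is read from chr10:80826760-80826834 on the plus strand, in a coding exon, and Oaz1-ps from chr17:17346066-17346140 on the minus strand.
Amd1: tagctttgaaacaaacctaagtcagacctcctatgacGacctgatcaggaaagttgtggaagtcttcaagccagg
Amd2: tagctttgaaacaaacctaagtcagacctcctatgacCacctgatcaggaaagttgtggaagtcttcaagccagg
Oaz1: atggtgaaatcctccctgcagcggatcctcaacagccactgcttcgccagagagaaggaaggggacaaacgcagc
Oaz1-ps: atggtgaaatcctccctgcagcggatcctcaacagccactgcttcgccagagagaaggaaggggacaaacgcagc

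Around these genes, 39 others of polyamine metabolism were listed by role, of which 28 were tested. Of these, 7 were higher in the cKO-labelled libraries and 2 higher in the Ctrl-labelled ones at an edgeR adjusted p under 0.05, against the 12.6 and 11.8% of all genes given above. Their median log2 fold change was 0.15 with TMM factors and −0.10 with total counts, where that of all genes was −0.27. The other 19 did not pass.

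In S-adenosylmethionine supply and methionine salvage, the latter of which recycles the methylthioadenosine left by Srm and Sms, 3 of 7 tested genes were higher in the cKO-labelled libraries and 0 in the Ctrl-labelled ones (median 0.19, or −0.06 with total counts). Adi1, an enzyme near the end of the cycle, had 50.2, 40.0 and 52.6 CPM in the Ctrl-labelled libraries and 88.8, 90.3 and 89.9 CPM in the cKO-labelled ones. The groups did not overlap, with a log2 fold change of 0.91 (SE 0.11, edgeR adjusted p = 0.00334), and the call was made in all 6 fits with a library left out and with total counts. Mtap, which starts the salvage, had 418, 457 and 663 counts in the Ctrl-labelled libraries (13.3 ± 4.21 CPM, SD, n = 3) and 685, 868 and 1030 counts in the cKO-labelled ones (21.8 ± 2.15 CPM). Its groups did not overlap, and its log2 fold change was 0.71 (SE 0.21, edgeR adjusted p = 0.0464). Enoph1, which acts between Mtap and Adi1, was at 0.47 (SE 0.12, adjusted p = 0.0268). These 2 calls were less firm than that of Adi1, since Mtap was called only without Ctrl 3 and Enoph1 only without Ctrl 3 or cKO 2 when a library was left out, and with total counts neither was called (0.47 and 0.22). Mat2a, which makes S-adenosylmethionine and is the most abundant gene of the list per length, was at 0.17 (edgeR adjusted p = 0.169).

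**Figure D5:**
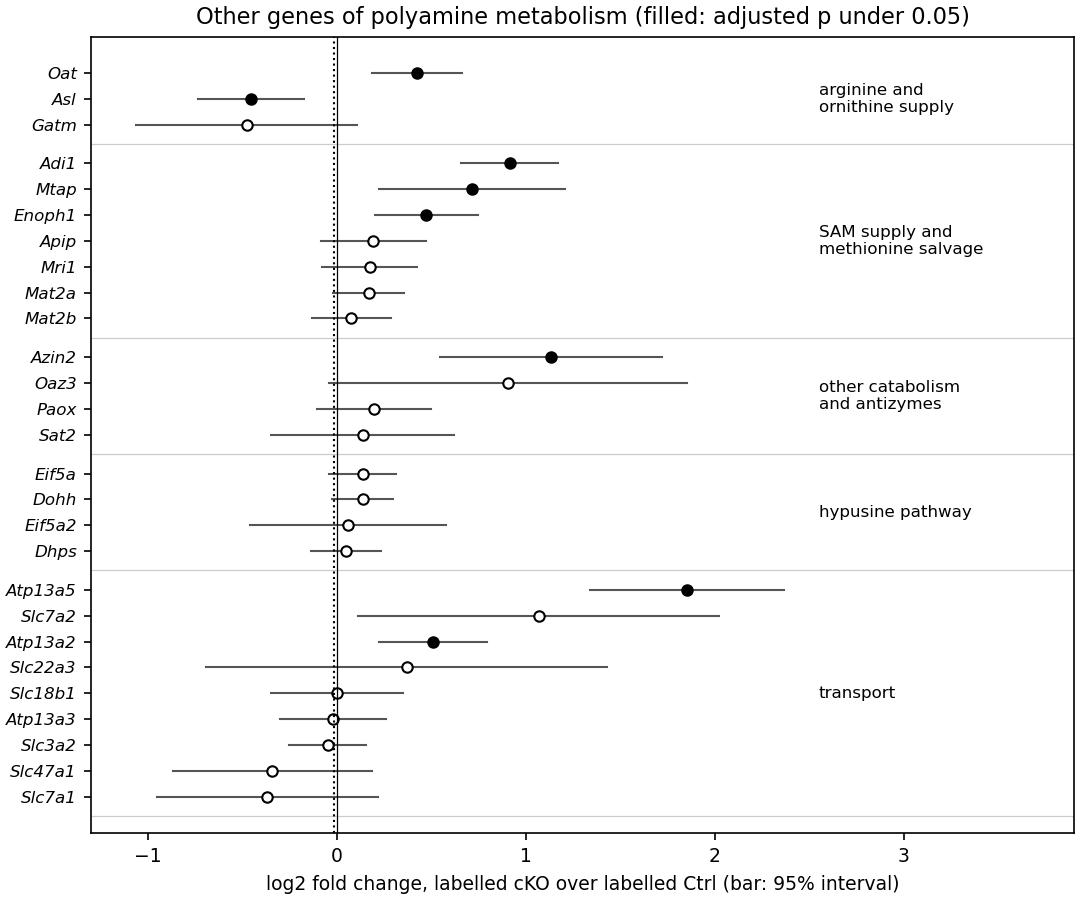
Log2 fold change, labelled cKO over labelled Ctrl, with 95% intervals for 27 of the 28 other tested genes by role (Slc22a2, at 0 in 2 libraries, is left out), filled where the edgeR adjusted p is under 0.05 and with the median of all genes dotted. Atp13a5 (1.85), Azin2 (1.13) and Adi1 (0.91) lie farthest to the right among the called genes.

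In arginine and ornithine supply, 3 of 8 genes were tested, with 1 called in each direction. Oat, which interconverts ornithine and a glutamate precursor and is the most abundant of the list, had 159, 160.2 and 149 CPM in the Ctrl-labelled libraries and 237, 193 and 197 CPM in the cKO-labelled ones. All libraries labelled cKO were higher (log2 fold change 0.42, SE 0.10, edgeR adjusted p = 0.0252). Asl, which releases arginine in the urea cycle, was lower in the cKO-labelled libraries at −0.46 (SE 0.12, edgeR adjusted p = 0.0325). Oat was called only without cKO 2, and Asl only without Ctrl 3 or cKO 1, among the 6 fits with a library left out, and Oat was not called with total counts (0.16).

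Among other catabolic and antizyme genes, 1 of 4 tested genes was called. Azin2, the other antizyme inhibitor, had 46, 87 and 56 counts in the Ctrl-labelled libraries and 144, 112 and 158 counts in the cKO-labelled ones. It did not overlap between the groups (log2 fold change 1.13, SE 0.25, edgeR adjusted p = 0.0192), and was called only without Ctrl 2, Ctrl 3 or cKO 2 when a library was left out. Paox, which oxidises the acetylated products of Sat1, was at 0.20 (edgeR adjusted p = 0.297), and Sat2, the most abundant of the list per length, at 0.14 (adjusted p = 0.664). In the hypusine pathway, which uses spermidine to modify the translation factor eIF5A, 0 of 4 genes were called by edgeR (0 at an unadjusted p under 0.05, 0 by DESeq2), with a median of 0.10 (−0.16 with total counts) and Eif5a itself at 0.14 (edgeR adjusted p = 0.223, 95% interval −0.04 to 0.31).

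Of the transport genes, 10 of 13 were tested, with 2 higher in the cKO-labelled libraries and 1 higher in the Ctrl-labelled ones. Atp13a2, a lysosomal exporter of polyamines, had 37.0, 37.7 and 37.9 CPM in the Ctrl-labelled libraries and 59.8, 43.4 and 56.8 CPM in the cKO-labelled ones. The groups did not overlap (log2 fold change 0.51, SE 0.12, edgeR adjusted p = 0.0248), but the call was made only without Ctrl 3 or cKO 2 when a library was left out, and not with total counts (0.24). Atp13a5, an ATPase of the same family, had 1.58, 1.42 and 1.42 CPM in the Ctrl-labelled libraries and 3.84, 6.02 and 6.14 CPM in the cKO-labelled ones. Its log2 fold change of 1.85 (SE 0.22, edgeR adjusted p = 0.00327) was called in all 6 fits with a library left out. Slc22a2, an organic cation transporter, had 61, 37 and 70 counts in the Ctrl-labelled libraries and 4, 0 and 0 in the cKO-labelled ones. It passed the expression filter only through the Ctrl-labelled libraries, so its call, 1 of the 2 higher in that group, is given as counts alone. Slc7a2, an importer of arginine and ornithine and the most abundant of the list per length over all 6 libraries, though not in the Ctrl-labelled ones or cKO 2, had 66.1, 63.6 and 45.5 CPM against 165, 50.3 and 152 CPM and was not called (1.07, edgeR adjusted p = 0.0987), with cKO 2 among the Ctrl-labelled libraries.

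Some lists of marker genes for fibre types and other cells differed between the labelled groups. Their counts of calls stand beside 12.6% of all genes tested as higher in the cKO-labelled libraries and 11.8% in the Ctrl-labelled ones. The summed level of 6 fast-fibre genes, listed for type IIb, was 30201 to 59882 CPM in the Ctrl-labelled libraries and 94406 to 128018 CPM in the cKO-labelled ones. Of these, 5 of 6 were called, and Myh4 alone averaged 25521 CPM in the Ctrl-labelled libraries and 70116 CPM in the cKO-labelled ones. The sum of 6 slow-fibre genes was 7399 to 12296 CPM against 287 to 2869 CPM, with 3 of 6 called as higher in the Ctrl-labelled libraries. Of 6 macrophage and immune genes, 5 were higher in the Ctrl-labelled libraries (144 to 163 CPM against 64.2 to 92.9), as were 2 of 6 genes of fibro-adipogenic progenitors and 3 of 6 denervation-related genes (96.7 to 121 CPM against 45.2 to 57.4). Of 13 endothelial, satellite cell and adipocyte genes, edgeR called 0, with 1 at an unadjusted p under 0.05, and DESeq2 called 1 (Chodl of satellite cells in both). Of 4 Schwann cell genes, edgeR called 0 (84.9 to 133 CPM against 44.0 to 85.2). Muscle genes (Acta1, Ckm, Des and Ttn) summed to 56550 to 57430 CPM and 60033 to 81539 CPM, with 1 of 4 (Ckm) higher in the cKO-labelled libraries. The 4 haemoglobin genes on the red blood cell list had 0 counts in every library. The part of these fibre and cell type markers in the levels of Smox, Sms and Sat1 was not tested.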

How the data were processed

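The data are bulk RNA-Seq of GP muscle in 3 Ctrl-labelled and 3 cKO-labelled libraries. The authors deposited 1 table of raw counts per library, whole numbers per gene without normalization. Per the labels, reads were trimmed with Trimmomatic 0.39, aligned to mm10 with HISAT2 2.1.0 and counted with featureCounts 1.6.2, with FastQC 0.11.8 for quality. The annotation, the strand setting and the treatment of reads that map to several places are not given in the sources used here, and genes in near-identical copies can lose counts by them.

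All genes were fitted in R 4.3.3 with edgeR 4.0.16 (TMM, filterByExpr, estimateDisp, glmQLFit, glmQLFTest, Benjamini-Hochberg over 14180 genes, called at an adjusted p under 0.05). Standard errors were derived from the F statistic. CPM were also compared by exact 2-sided permutation tests. The fit was tested on simulated data. The p-values set the difference between the groups against the spread between these mice. The members and lists were chosen with earlier results of these data known. Named were all 10 members, other pathway genes that were called or most abundant in their list, the 3 genes most like the member with the smallest p, and Ppapdc3 (Net39). Paox and Chodl were named after their values were seen, and some genes of the lists are not reported here. Alternatives were scaling by total counts or by DESeq2's size factors, a minimum of 10 counts in every library or no minimum, the test of DESeq2 1.42.0, a block for the mouse number, leaving out each library, a fold over 2, summed Amd1 and Amd2, and another exon length. Positions and exon lengths come from GENCODE M21 (GRCm38), and promoters from RefSeq.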

Additional observations from a re-analysis of the deposited data

How the results depend on the processing

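Smox was called under every alternative that was run, with log2 fold changes of 1.49 to 1.93. No member and no called polyamine gene changed sign. With total counts the median of the other polyamine genes turned from 0.15 to −0.10, and the uncalled Mat2a, Sat2, Paox and Eif5a turned negative (−0.09, −0.11, −0.05 and −0.12), beside −0.27 for all genes. With total counts, 673 genes were higher in the cKO-labelled libraries and 4074 in the Ctrl-labelled ones, 5 members were called (1 and 4), and 3 of the other polyamine genes were higher in each group. With a fold change over 2 as well, 858 genes (302 and 556) and 1 member (1 and 0) were called. With at least 10 counts in every library, 1 other polyamine gene was higher in the Ctrl-labelled libraries, because Slc22a2 was not tested.

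Same-numbered mice did not deviate together (correlations of 0.08, −0.21 and −0.0020), and not every library correlated best with its own number. With the mouse number as a replicate block, 1899 genes (927 and 972), 2 members (2 and 0) and 4 other polyamine genes (3 and 1) were called. Lost were Sat1 (−0.56, edgeR adjusted p = 0.0665), Oat (adjusted p = 0.0578), Asl (0.0786), Enoph1 (0.0795), Azin2 (0.0628) and Atp13a2 (0.0552).

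Leaving out 1 library gave 1560 to 3585 calls over all genes (766 to 1777 higher in the cKO-labelled libraries, 788 to 1808 in the Ctrl-labelled ones), 1 to 3 among the members (1 to 3 and 0 to 1) and 3 to 8 among the other polyamine genes (2 to 7 and 1 to 2). For Net39 (Ppapdc3) the log2 fold change was 3.95 to 4.31 under all alternatives, always higher in the cKO-labelled libraries. Amd1 and Amd2 summed reached 1 count and gave no value. Levels per length rose with the longest transcript for all 7 genes, since it is shorter than all exons.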
